A study of Mus musculus with 16 samples.

Results

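Alcohol, aldehyde and retinol dehydrogenases were taken from the array by gene symbol: every probe of a gene whose symbol starts with *Adh*, *Aldh* or *Rdh* and a number, or with *Akr1* or *Dhrs*, with 1 aldehyde dehydrogenase gene left aside. The rule gave 89 of the 25697 probes, for 58 of the 16593 genes with a symbol. They comprised 7 probes of 4 alcohol dehydrogenases (*Adh*), 29 probes of 19 aldehyde dehydrogenases (*Aldh*), 19 probes of 13 aldo-keto reductases of family 1 (*Akr1*), 17 probes of 10 dehydrogenase/reductase genes of the short-chain family (*Dhrs*) and 17 probes of 12 retinol dehydrogenases (*Rdh*). Liver RNA of male A/J mice (8 samples) and male C57BL/6J mice (8 samples) was hybridised to Illumina Mouse Ref 8 arrays. Both strains are inbred, carried no engineered allele in the labels and were fed a high-fat, high-caloric (HFHC) diet. The labels give an age of 8 weeks for every sample. The methods give mice aged 8 to 10 weeks for all experiments, and 8 weeks as the time on the diet. The age at sampling is therefore not settled. By the methods each sample was pooled from 2 mice and is not an animal. No source says which samples came from separate pools, and P values therefore measure the spread between these samples, which may be technical. No sample on another diet was analysed here, so diet and strain effects were not compared.

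These enzymes move hydride between NAD(P) and alcohols, aldehydes and ketones. Alcohol dehydrogenases oxidise ethanol and retinol to aldehydes in the cytosol, aldehyde dehydrogenases oxidise acetaldehyde, retinal and the aldehydes of lipid and amino acid breakdown to acids, and the aldo-keto and short-chain reductases often work in the opposite direction on sugars, steroids and retinoids. The liver is the main site of ethanol oxidation, and it also stores vitamin A, which retinol dehydrogenases and *Aldh1a* enzymes convert in steps to retinoic acid.

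A probe on this array is a stretch of 50 bases, and each probe here is assigned to 1 gene symbol. Whether it also matches other transcripts was not tested. The probes of a gene are numbered here from the highest mean signal down. The stretches below are shown because the results turn on whether probes of 1 gene gave the same answer, or because a gene with a large difference was read by a single probe. Each line gives 30 bases of the probe, 5′ to 3′ as encoded in the deposited probe identifiers. Capitals mark bases shared with the partner probe of the same gene.
Rdh14 probe 1: agCCCGTCGCTTAGAAGGAACAAACGTGAC
Rdh14 probe 2: CCCGTCGCTTAGAAGGAACAAACGTGACTG
Aldh8a1 probe 2: cagtagaatCTTTGTCCAGAGAAGCATCTA
Aldh8a1 probe 3: CTTTGTCCAGAGAAGCATCTAcagtgaatt
Aldh8a1 probe 1: cagtcatgccgctgcttgccaggagactgg
Dhrs7b probe 1: gatccgccgctaagacctggtggagggcta
Dhrs7b probe 2: ccatggctgtctacatcagaactctggctc
Dhrs7b probe 3: cacatcgtcgccatcagcagcatccagggc
Dhrsx probe 1: agccactttttggccgctgtgacgcctgtg
Dhrsx probe 2: ctaggatcggacctcacacagccgaggttt
Akr1c19 probe 1: gcctgacaaccctccttcagccagagctgt
Adh7 probe 1: ctggcaaacctttatctgcttagtttaccg
The probes of *Rdh14* shared 48 of their 50 bases and are close to a repeat measurement of the same site. The last 21 bases of *Aldh8a1* probe 2 were the first 21 bases of probe 3, so these probes read neighbouring, overlapping sites. The 3 probes of *Dhrs7b* and both probes of *Dhrsx* had no long run in common and read different sites. Probe 3 of *Dhrs7b* shared a run of 15 bases, the shortest length searched for, with a probe that has no gene symbol. Whether A/J and C57BL/6J differ in sequence under any of these probes was not tested. For a gene with 1 probe, a difference in RNA and a difference in binding to the probe cannot be told apart.

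Values are signals quantile normalized by the authors and read here as log2, since the sources do not name the transform, and every fold change below rests on that reading. They lie on a scale from 7.61 to 15 with an array median of 8.01. The probes of the highest mean, as many as passed the study's detection filter, were kept and tested with limma, and a probe was called when its Benjamini-Hochberg adjusted P was 0.05 or less and its fold change at least 1.5. Of the 89 probes, 61 were kept for 43 genes. The other 28 probes had means from 7.73 to 7.98, close to the array median, and without the filter their strain differences were at most 0.10. *Adh7* was the 1 gene whose probe was kept only through its level in C57BL/6J, so that it had to differ between the strains to be tested. A gene was counted by its kept probe of the highest mean.

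Of the 61 probes, 8 were called, 7 of them lower in A/J, against 4.86% of all kept probes. By gene, 6 of 43 (14%) were called against 5.29% of all 9052 genes tested. Without *Adh7* the counts were 7 of 60 probes and 5 of 42 genes (11.9%). Lower in A/J were *Adh7*, *Akr1c19*, *Aldh1a7*, *Dhrs1* and *Dhrs7b*, where 3.16% of all genes were called lower, and *Dhrsx* was higher in A/J, where 2.13% of all genes were called higher. *Aldh8a1* had a called probe, but its probe of the highest mean was not called. At the adjusted P alone, 12 of 43 genes (27.9%) passed, 9 lower and 3 higher in A/J, near the 28.1% of all genes. The samples of both strains did not overlap in 8 of the 43 genes, against 9.19% of all genes. The difference between strains was below 0 in 30 of 43 genes (69.8%, against 45.7% of all genes), but small in most: its median was -0.03, against 0.01 over all genes. The counts by adjusted P, by overlap and by sign all include *Adh7*, which had to differ to be tested. In bulk liver, fewer cells of a type and less RNA per cell cannot be told apart.

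**Figure D1:**
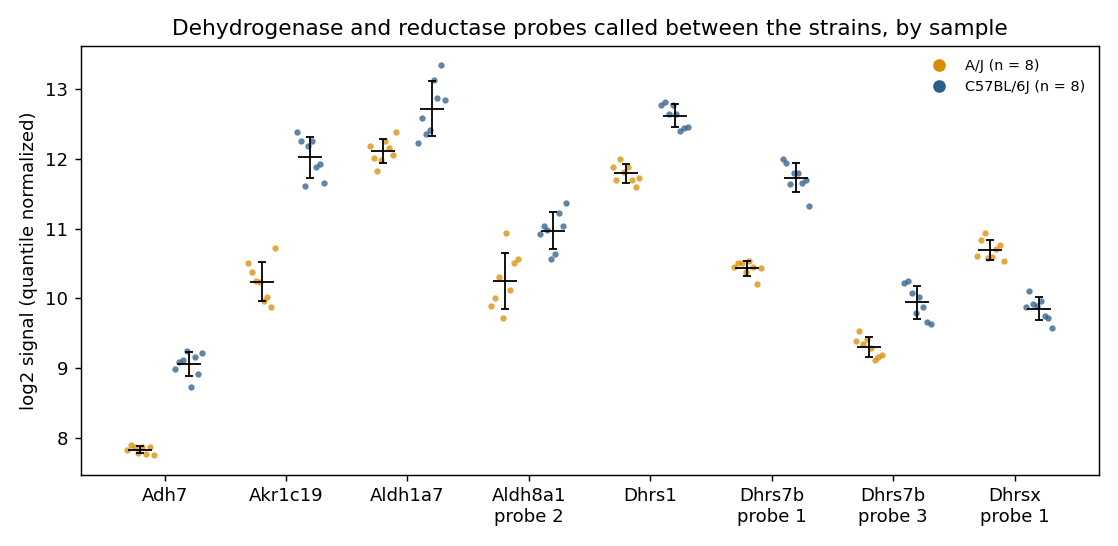
Log2 signal of each sample for the 8 called probes in A/J and C57BL/6J liver (points are samples, n = 8 per strain; bars are the mean ± SD). The strains do not overlap for *Adh7*, *Akr1c19*, *Dhrs1*, both called probes of *Dhrs7b* and *Dhrsx*, whereas some samples of *Aldh1a7* and *Aldh8a1* probe 2 lie in the range of the other strain.

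Among the alcohol dehydrogenases, 1 of 4 genes was called (5.29% of all genes were) and the median difference was -0.13. That gene was *Adh7*, which had to differ between the strains to be tested. *Adh1*, *Adh4* and *Adh5* were not called. Among the 8000 probes of the highest mean, which left out *Adh7*, the family median was -0.11. *Adh7* encodes the class IV enzyme, an efficient retinol dehydrogenase best known from stomach and other epithelia. Its signal was 7.75, 7.84 and 7.90 (lowest, median and highest) in A/J and 8.72, 9.10 and 9.25 in C57BL/6J. Every A/J sample was thus at the dim end of the array and every C57BL/6J sample above it, with no overlap. The means were 7.83 ± 0.0542 and 9.06 ± 0.176 (SD, n = 8 each). Because the A/J mean lay under 8.00, the lowest mean among kept probes, the difference is given as a bound against that value: the signal was at least 2.08-fold higher in C57BL/6J. Since the filter kept this probe through C57BL/6J alone, its P value is not given.

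The other alcohol dehydrogenases, among them the class I enzyme of ethanol oxidation, did not pass the adjusted P. *Adh1*, the class I enzyme of ethanol and retinol oxidation, had signals of 14.36, 14.51 and 14.62 in A/J and 14.44, 14.65 and 14.78 in C57BL/6J at probe 1. These ranges overlapped near the top of the scale, and the difference was -0.11 (95% interval -0.22 to 0.01). Probe 2 of *Adh1* gave -0.03 (-0.17 to 0.10), and it shares a run of 16 bases with a probe of *Adh5*. *Adh5* encodes the class III enzyme, which handles formaldehyde and nitrosoglutathione, and differed by 0.00 (-0.18 to 0.19) at probe 1 and -0.16 (-0.49 to 0.17) at probe 2. *Adh4*, the class II enzyme, differed by -0.16 (-0.32 to 0.00, adjusted P = 0.125).

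Among the aldehyde dehydrogenases, 1 of 12 tested genes was called (8.33%, against 5.29% of all genes), and the median difference was -0.06. At the adjusted P alone 3 passed (25.0%), near the 28.1% of all genes. *Aldh1a7* encodes a cytosolic relative of retinal dehydrogenase 1 found in rodents. Its signal was 11.83, 12.10 and 12.38 in A/J and 12.22, 12.71 and 13.34 in C57BL/6J. The highest A/J sample exceeded the lowest C57BL/6J sample, and the C57BL/6J samples spread over more than 1 log2 unit. The difference was -0.62 ± 0.139 (adjusted P = 0.00283), a 1.53-fold change just past the threshold. It fell under 1.5-fold, with an adjusted P that still passed, without A/J sample 3 (-0.58), without C57BL/6J sample 5 (-0.56) and without C57BL/6J sample 7 (-0.53). Sample 7, the highest C57BL/6J sample for this gene, was also 1 of 3 samples with exocrine pancreas RNA, and without those 3 the difference was -0.50.

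The mitochondrial enzyme that clears acetaldehyde, *Aldh2*, had signals of 14.50, 14.61 and 14.72 in A/J and 14.52, 14.62 and 14.69 in C57BL/6J. The ranges were nearly the same, and the difference was -0.01 (95% interval -0.09 to 0.07). *Aldh1a1*, which oxidises retinal to retinoic acid, differed by -0.09 (-0.35 to 0.16), and *Aldh1b1*, a second mitochondrial acetaldehyde dehydrogenase, by -0.02 (-0.34 to 0.29). The intervals of *Aldh1a1* and *Aldh1b1* contain 0 and lie within 1.5-fold in either direction on this scale. They rest on the spread between these samples, which may be technical, and so may be too narrow for a difference between the strains. *Aldh2* and *Adh1* lay close to the highest value of the arrays, 15, and whether signals there still follow the amount of RNA was not tested. *Aldh3b1*, an enzyme for medium and long-chain aldehydes, had probes at 0.02 and -0.02.

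**Figure D2:**
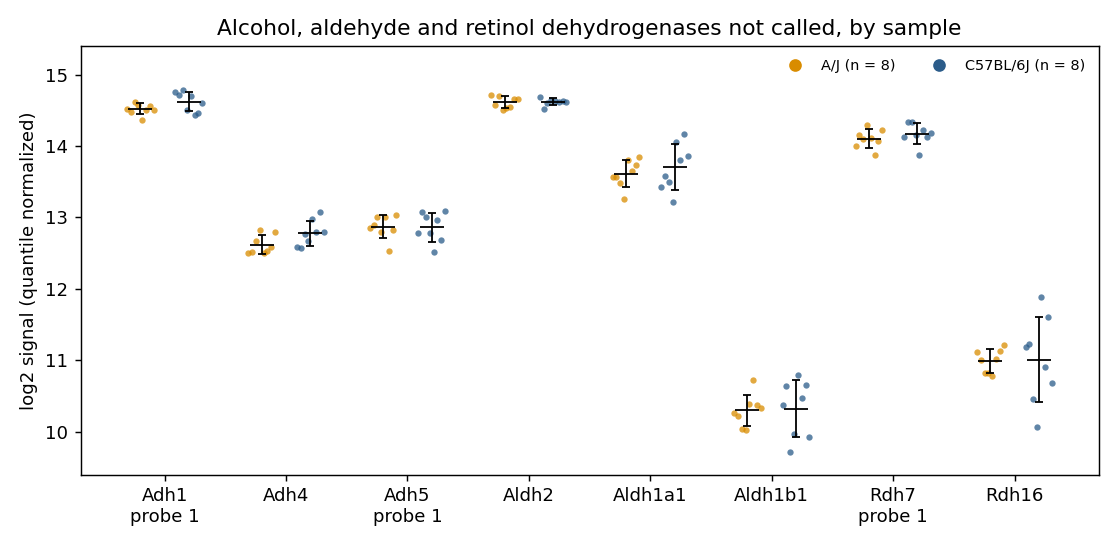
Log2 signal of each sample for 8 genes that were not called (points are samples, n = 8 per strain; bars are the mean ± SD). The strains overlap for every gene shown. *Rdh16* has a wider spread in C57BL/6J than in A/J.

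Below the fold threshold, and named after their values were seen, were *Aldh16a1* and *Aldh3a2*. *Aldh16a1* signal was 9.04, 9.39 and 9.55 in A/J and 9.71, 9.91 and 10.11 in C57BL/6J, without overlap, a difference of -0.55 ± 0.0731 (adjusted P = 1.76e-05, 1.46-fold). In samples 5 to 8 alone it was called (-0.60). *Aldh3a2*, the fatty aldehyde dehydrogenase, differed by -0.37 ± 0.101 (adjusted P = 0.00984). The remaining tested genes of the family without a called or repeated probe, *Aldh5a1*, *Aldh6a1* and *Aldh7a1*, differed by -0.04, -0.07 and 0.03.

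Among the aldo-keto reductases, 1 of 9 tested genes was called (11.1%, against 5.29% of all genes), and the median difference was -0.04. At the adjusted P alone 2 passed (22.2%, against 28.1% of all genes). *Akr1c19* belongs to the cluster of *Akr1c* genes on chromosome 13, whose products act on steroids and other hydroxyl compounds. Its signal was 9.87, 10.25 and 10.72 in A/J and 11.61, 12.06 and 12.39 in C57BL/6J. The A/J samples all lay below the C57BL/6J samples, with a gap between the strains. The difference of -1.78 ± 0.134 (adjusted P = 1.31e-08), or 3.44-fold, was the largest of the 61 probes. The other tested genes of the cluster did not pass: *Akr1c12* differed by -0.08 (95% interval -0.28 to 0.12), *Akr1c6* by -0.02 (-0.40 to 0.35) and *Akr1c14*, a 3-alpha-hydroxysteroid dehydrogenase, by -0.04 (-0.56 to 0.48) at probe 1 and -0.19 (-0.90 to 0.52) at probe 2. Of these, *Akr1c14* probe 1, *Akr1c14* probe 2 and *Akr1c6* had wide intervals, as the samples within a strain differed.

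*Akr1a1*, the aldehyde reductase that in mice also serves ascorbate synthesis, was lower in A/J at each of its 3 probes. The differences were -0.26 ± 0.0582, -0.29 ± 0.0806 and -0.19 ± 0.059, with adjusted P values of 0.00275, 0.0112 and 0.0229. None reached 1.5-fold. The strains did not overlap at probe 1, where A/J lay between 13.41 and 13.71 and C57BL/6J between 13.76 and 14.06. *Akr1d1*, the 5-beta-reductase of bile acid synthesis, differed by 0.12 (95% interval -0.01 to 0.25). *Akr1b8* and *Akr1b10*, relatives of aldose reductase, differed by -0.02 and 0.00, and *Akr1e1*, a reductase of anhydrofructose, by -0.29 (adjusted P = 0.0827).

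Of the 8 tested *Dhrs* genes, 3 were called (37.5%, against 5.29% of all genes), and the median difference was -0.06. At the adjusted P alone 3 passed as well, against 28.1% of all genes. *Dhrs7b* on chromosome 11 encodes a reductase of ether lipid synthesis. Its probe 1 had signals of 10.20, 10.45 and 10.53 in A/J and 11.33, 11.74 and 12 in C57BL/6J, and probe 3 had 9.12, 9.32 and 9.53 against 9.63, 9.95 and 10.25. Neither probe overlapped between the strains. Probe 2 had 9.84, 9.90 and 10.11 in A/J and 9.84, 10.25 and 10.63 in C57BL/6J, and its ranges overlapped. The differences were -1.30 ± 0.0783 (adjusted P = 6.35e-10) at probe 1, -0.33 ± 0.0853 (adjusted P = 0.00692, not called) at probe 2 and -0.64 ± 0.0923 (adjusted P = 4.19e-05) at probe 3.

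*Dhrs1* on chromosome 14, a reductase of the endoplasmic reticulum, had signals of 11.59, 11.77 and 12 in A/J and 12.40, 12.64 and 12.82 in C57BL/6J. All A/J samples were below all C57BL/6J samples, a difference of -0.83 ± 0.0726 (adjusted P = 9.69e-08) at its 1 kept probe. *Dhrsx*, whose human counterpart acts in dolichol synthesis, went the other way. Its probe 1 had signals of 10.54, 10.65 and 10.93 in A/J and 9.57, 9.89 and 10.10 in C57BL/6J, without overlap, a difference of 0.84 ± 0.0734 (adjusted P = 9.33e-08). Probe 2 had 9.88, 10.07 and 10.29 against 9.34, 9.72 and 9.90, with a small overlap, and 0.35 ± 0.0801 (adjusted P = 0.00284, not called). *Dhrs7*, a retinal and steroid reductase in human studies, did not pass at any of its 3 probes (-0.10, -0.17 and -0.22). The other *Dhrs* genes tested, *Dhrs2*, *Dhrs4*, *Dhrs11* and *Dhrs13*, had differences from -0.14 to 0.09, and none passed the adjusted P.

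Of the 10 retinol dehydrogenases tested with limma, 0 were called, where 5.29% of all genes were. An unadjusted P under 0.05 was seen in 4, against 3438 of all 9052 genes tested. At the adjusted P alone 3 passed, against 28.1% of all genes, and the median difference was 0.00. *Rdh7*, a microsomal retinol dehydrogenase of liver, had signals of 13.87, 14.11 and 14.29 in A/J and 13.87, 14.17 and 14.34 in C57BL/6J at probe 1. The ranges were nearly the same, and the differences were -0.07 (95% interval -0.21 to 0.08) at probe 1 and -0.12 (-0.24 to 0.01) at probe 2. *Rdh14*, a reductase of the same group as *Rdh11*, had signals of 11.13, 11.29 and 11.35 in A/J and 10.50, 10.85 and 11.06 in C57BL/6J at probe 1, without overlap. Its differences were 0.49 ± 0.076 (adjusted P = 9.29e-05) and, at the nearly identical probe 2, 0.47 ± 0.0794 (adjusted P = 0.000237). Both stayed under 1.5-fold.

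The 2 other genes past the adjusted P, named after their values were seen, were *Rdh11* and *Rdh5*. *Rdh11*, a microsomal retinal reductase, had signals of 9.27, 9.46 and 9.80 in A/J and 9.67, 9.99 and 10.63 in C57BL/6J. The ranges overlapped, and the difference was -0.57 ± 0.128 (adjusted P = 0.00279, 1.48-fold). It passed the fold threshold when any 1 of 6 samples was left out: A/J samples 1 (-0.61), 2 (-0.60) and 5 (-0.60), and C57BL/6J samples 3 (-0.61), 5 (-0.62) and 6 (-0.59). It also passed in samples 1 to 4 alone (-0.67). *Rdh5*, the 11-cis retinol dehydrogenase known from the eye, differed by 0.26 ± 0.08 (adjusted P = 0.0233). Of the rest, *Rdh9* differed by 0.31 (adjusted P = 0.0823), *Rdh10*, the retinol dehydrogenase that embryos depend on, by -0.02, and *Rdh1*, *Rdh8*, *Rdh16* and *Rdh19* by -0.02 to 0.02.

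**Figure D3:**
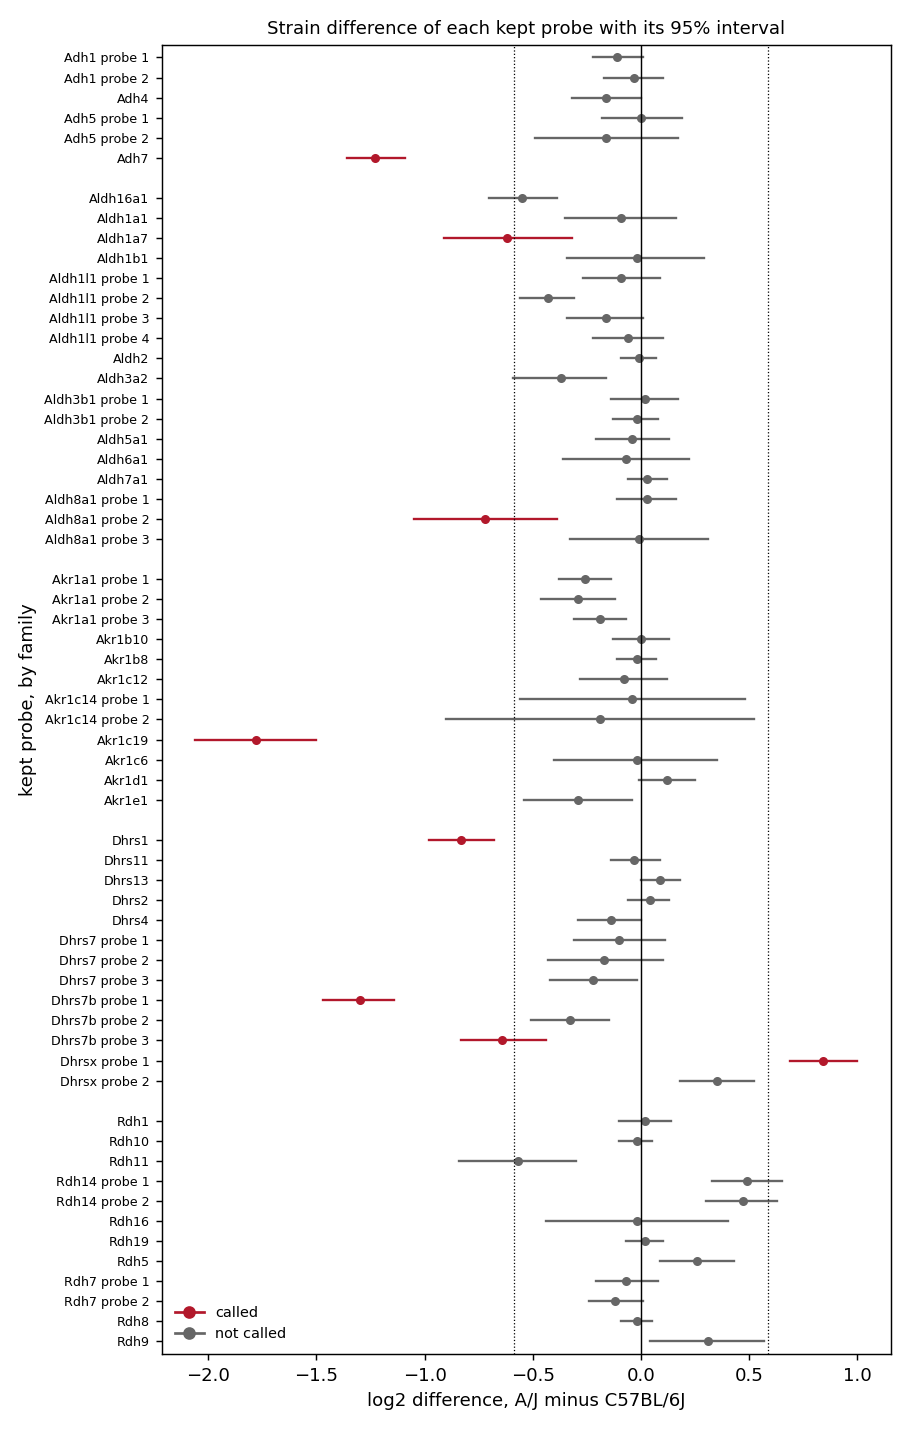
Log2 difference between A/J and C57BL/6J (points) with its 95% interval from limma (lines) for each of the 61 kept probes, grouped by family (dotted lines, 1.5-fold in either direction). The 8 called probes are in red. *Adh7* is drawn as fitted, although its A/J mean lay under the lowest kept mean. *Akr1c19* lies farthest from 0 at -1.78, and *Dhrsx* probe 1 at 0.84 is the called probe above 0.

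The agreement of probes was tested in the 12 genes with several kept probes, which gave 25 pairs. For each sample the signal of 1 probe minus that of the other was taken, and the strains were compared with a two-sided exact permutation test, whose smallest P with 8 against 8 samples is 0.000155. In 9 pairs of 4 genes the 2 probes gave different strain differences, after adjustment over the 25 pairs. In the other 16 pairs the differences between probes were at most 0.16.

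In *Dhrs7b* all 3 pairs passed. Probe 1 exceeded probe 2 by 0.36 to 0.64 in A/J samples and by 1.18 to 1.67 in C57BL/6J samples, so that no A/J sample reached the C57BL/6J range. The strain difference at probe 1 was thus 0.97 further below 0 than at probe 2, and 0.66 further than at probe 3 (exact permutation test, adjusted P = 0.000971 for each). Probe 2 and probe 3 differed by 0.30 (adjusted P = 0.000971). The sign was the same at all 3 probes, and the size was not. In *Dhrsx* the sign was also shared, and probe 1 gave a difference 0.49 above that of probe 2 (adjusted P = 0.000971).

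In *Aldh8a1*, which encodes an enzyme of the kynurenine pathway first described with retinal, 1 of 3 probes was called. Probe 2 had signals of 9.72, 10.22 and 10.94 in A/J and 10.57, 11.01 and 11.36 in C57BL/6J, a difference of -0.72 ± 0.156 (adjusted P = 0.00207). The highest A/J sample, sample 5, lay within the C57BL/6J range. In samples 5 to 8 alone probe 2 gave -0.53 and was no longer called (adjusted P = 0.0824). Probe 1 had 12.70, 12.82 and 12.94 in A/J and 12.52, 12.85 and 13.03 in C57BL/6J, a difference of 0.03 (95% interval -0.11 to 0.16).

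Probe 3 of *Aldh8a1*, which overlaps probe 2 by 21 bases, had 8.20, 8.57 and 8.94 in A/J and 8.22, 8.52 and 9.02 in C57BL/6J, a difference of -0.01 (-0.33 to 0.31). The strain difference of probe 2 was set apart from that of probe 1 by 0.74 (exact permutation test, adjusted P = 0.00259) and from that of probe 3 by 0.71 (adjusted P = 0.00233). Probe 1 and probe 3 did not differ by the same test (0.03, adjusted P = 0.847). Probe 3 was dim, with a mean of 8.58 against an array median of 8.01, while probe 2 averaged 10.61. Its means were 8.29 in A/J samples 1 to 4 and 8.85 in 5 to 8, and 8.28 and 8.88 in C57BL/6J. A dim signal can limit the difference that a probe shows, and its part in the disagreement was not tested.

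The fourth gene was *Aldh1l1*, which encodes 10-formyltetrahydrofolate dehydrogenase of folate metabolism. Probe 2 had 12.22, 12.44 and 12.57 in A/J and 12.73, 12.80 and 13.06 in C57BL/6J, without overlap, and -0.43 ± 0.0597 (adjusted P = 2.6e-05, under 1.5-fold). The other 3 probes overlapped between the strains, with differences of -0.09, -0.16 and -0.06. Probe 2 differed from probe 1 by 0.34 (exact permutation test, adjusted P = 0.00971), from probe 3 by 0.27 (adjusted P = 0.0332) and from probe 4 by 0.37 (adjusted P = 0.00389). Probe 4 was dim, with a mean of 8.68, and the part of this in the disagreement was not tested. A run of 15 bases in probe 1, the shortest length searched for, was shared with a probe of *Ins2*, and its effect on the signal was not tested.

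**Figure D4:**
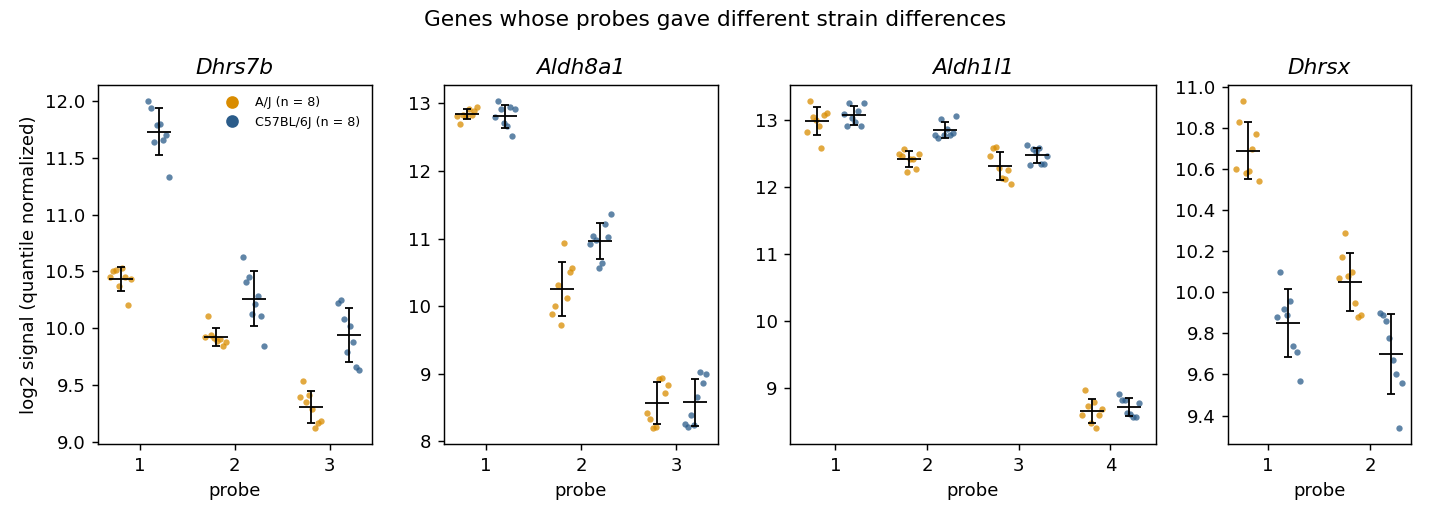
Log2 signal of each sample at each kept probe of *Dhrs7b*, *Aldh8a1*, *Aldh1l1* and *Dhrsx* (points are samples, n = 8 per strain; bars are the mean ± SD). The gap between strains is -1.30, -0.33 and -0.64 at the 3 probes of *Dhrs7b*, and it is present at probe 2 of *Aldh8a1* while probes 1 and 3 overlap.

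Within each strain, several of these genes split by the sample numbers in the labels. The numbers are names only, no source gives their meaning, and the split was chosen with earlier results known, so it is described without a test. In 7 of the 61 probes, samples 5 to 8 all lay above samples 1 to 4 in both strains, against 4.89% of all kept probes. The opposite pattern was seen in 1.08% of all kept probes and in 0 of the 61. *Akr1c14* probe 1 had means of 10.07 in A/J samples 1 to 4 and 10.73 in 5 to 8, and of 9.88 and 10.99 in C57BL/6J. Probe 2 of this gene moved in the same way, from 9.13 to 10.33 and from 9.27 to 10.57. Both probes thus differed more between the numbers than between the strains.

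The other 5 probes were those of *Akr1e1*, *Adh5* (probe 2), *Aldh1a1*, *Aldh6a1*, which acts in valine breakdown, and *Aldh8a1* (probe 3). *Aldh1a1* had means of 13.46 and 13.76 in A/J and of 13.43 and 13.97 in C57BL/6J. Markers of hepatocytes moved with this split: their mean signal was 12.95 to 13.06 in A/J samples 1 to 4 and 13.10 to 13.24 in 5 to 8, and 12.95 to 13.01 and 13.14 to 13.29 in C57BL/6J. Their part in the result was not tested. With the split as a term in the model, 8 probes were called, as without it.

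**Figure D5:**
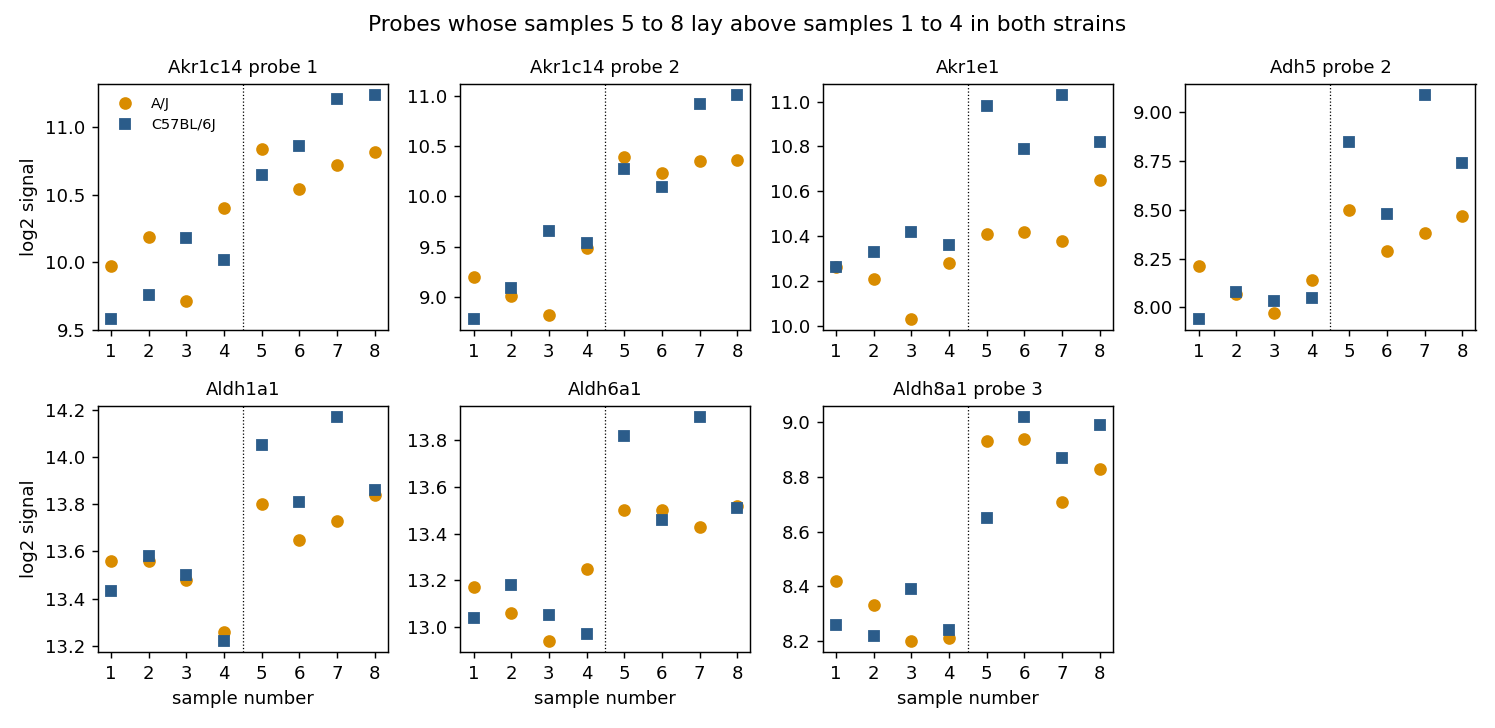
Log2 signal against sample number for the 7 probes whose samples 5 to 8 lay above samples 1 to 4 in both strains (circles, A/J; squares, C57BL/6J; each panel has its own scale, and the dotted line separates samples 4 and 5). A/J and C57BL/6J samples on the same side of the line overlap in most panels.

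Other genes of these pathways were counted from 3 lists. Of 17 tested genes of retinoid storage, transport and signalling, 2 were called (11.8%, against 5.29% of all genes) and 6 passed the adjusted P (28.1% of all genes did), and the median difference was 0.04. *Cyp2c39*, a P450 that hydroxylates retinoic acid in mice, was at 12.47 ± 0.184 in A/J and 8.21 ± 0.15 in C57BL/6J, a difference of 4.26 (adjusted P = 4.13e-17). The C57BL/6J mean was close to the array median of 8.01, so this difference was measured against a dim signal. *Bco2*, which cleaves carotenoids, differed by -0.62 (adjusted P = 2.65e-07), and fell under 1.5-fold without A/J sample 7 (-0.58). Markers of stellate cells, which store vitamin A, had a mean of 9.41 to 9.58 in A/J and 9.27 to 9.61 in C57BL/6J samples, with overlap.

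Of 5 tested genes of ethanol and acetate metabolism outside the families, 2 were called (40.0%, against 5.29% of all genes). They went in opposite directions, and the median difference of the list was 0.02. *Cat*, the peroxisomal catalase, was at 14.32 ± 0.119 in A/J and 13.69 ± 0.201 in C57BL/6J, a difference of 0.64 (adjusted P = 7.18e-06). *Acss2*, which makes acetyl-CoA from acetate, differed by -0.64 (adjusted P = 0.000423), and fell under 1.5-fold without C57BL/6J sample 1 (-0.57) or sample 2 (-0.58). Of 19 tested genes among other carbonyl and steroid reductases and dehydrogenases, 2 were called (10.5%, against 5.29% of all genes). These were *Hsd17b6*, an oxidoreductase of retinol and androgens (1.46, adjusted P = 0.000279), and *Hsd17b10*, a mitochondrial enzyme of isoleucine breakdown (-0.81, adjusted P = 3.61e-08).

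Markers of hepatocytes did not separate the strains, with means of 12.95 to 13.24 in A/J and 12.95 to 13.29 in C57BL/6J samples. Those of bile duct cells (3 genes on the array) did, at 7.90 to 8.00 in A/J and 8.04 to 8.16 in C57BL/6J, though near the array median of 8.01, and their part in the results was not tested. Markers of exocrine pancreas (13 genes) averaged 10.77 to 12.77 in 3 samples, A/J 4, A/J 7 and C57BL/6J 7, and 8.05 to 8.93 in the other 13. Without those 3 samples every called probe but *Aldh1a7* was still called in the same direction.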

How the data were processed

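Biotin-labelled liver RNA from 16 samples was hybridised to Illumina Mouse Ref 8 arrays. Scans were processed by the authors in BeadStudio and quantile normalized with lumi, and the values they deposited were treated as log2. For the transform, which could also be a variance-stabilising one, the background correction and the versions, "not given in the sources used here" applies; fold changes and the fold threshold rest on a log2 scale. Detection P values were not used here, so the probes of the highest mean, in the number that the study's filter kept, stood in for them. Every column was used, and the number of arrays limits the precision.

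Members were found by array symbol, and all 58 genes matched RefSeq (GRCm38.p6) by Entrez ID. Probe sequences (50 bases) were decoded from the probe identifiers, whose check letters matched in 25697 of 25697. The exon or UTR position of a probe was not analysed here. The strains were compared on all kept probes by lmFit and eBayes of limma 3.58.1 (R 4.3.3, package data.table, version 1.17.8; 14 residual and 3.11 prior degrees of freedom), with P values adjusted over all of them. Pairs of probes were compared by exact permutation in SciPy 1.17.1 and NumPy 2.4.6, with Python 3.11.15, pandas 2.3.3 and matplotlib 3.10.9. Scripts were tested on simulated data.

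Named were genes with a called probe or several kept probes and *Adh1*, *Aldh2*, *Aldh1a1*, *Aldh1b1* and *Rdh7* for their roles (19 genes), and others where stated. The genes, the lists and the sets of samples left out were chosen with earlier results of these data known. Alternatives covered the filter, centring, normalization, moderation, array weights, blocks, fold thresholds, subsets of samples and each sample left out.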

Additional observations from a re-analysis of the deposited data

Results flagged for a closer look

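In 3 of 74 groups of 8 samples (each kept probe of a named gene in each strain), 1 sample lay far from the other 7 by Dixon's criterion, where chance marks about 1 in 20 groups. *Dhrs7b* probe 1 was at 10.2 in A/J sample 7, below the other A/J samples at 10.37 to 10.53. *Dhrs7b* probe 2 was at 10.11 in A/J sample 2, above the others at 9.84 to 9.94. *Rdh7* probe 1 was at 13.87 in C57BL/6J sample 5, below the others at 14.12 to 14.34.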

How the results depend on the processing

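Of the 8 called probes, 5 kept their sign and call under all 28 alternatives. *Adh7* did so under the 27 in which it was tested. It was kept only through its level in C57BL/6J, so this is no support for its call. *Aldh1a7* and *Aldh8a1* probe 2 lost theirs under the settings named with them, and *Aldh1a7* also in samples 1 to 4 alone (-0.39, under 1.5-fold). At 2-fold 3 probes and 3 genes were called. With no fold threshold 20 probes and 12 genes (27.9%, against 28.1% of all genes) were called. The shares of all probes at these settings, and of all genes at 2-fold, are not given here. Leaving out 1 sample gave 7 to 9 probes and 5 to 7 genes: *Aldh1a7* was the gene lost and *Rdh11* the gene gained. The 8000 probes of the highest mean excluded *Adh7*, and 5 genes were then called. Samples 1 to 4 alone gave 6 genes, with *Aldh1a7* lost and *Rdh11* gained, samples 5 to 8 alone gave 7, with *Aldh16a1* gained, and the fold of linear means gave 9 probes and 7 genes.

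Of the retinoid list 1 gene was called in samples 1 to 4 alone, without the 3 samples with pancreas RNA and at 2-fold. With no fold threshold 6 of its 17 tested genes were called, against 28.1% of all genes, and with 1 sample left out 1 to 2. Of the ethanol and acetate list 1 was called in samples 1 to 4 alone, where *Acss2* was lost, 1 in samples 5 to 8 alone, where *Cat* was lost (0.49), 0 at 2-fold (2 genes at the adjusted P by limma), and 1 to 2 with 1 sample left out. Of the 19 other reductases 1 was called at 2-fold and 4 with no fold threshold, where 28.1% of all genes passed. With 1 sample left out 2 to 3 were called, where *Hsd17b12* was gained.

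Pairs of probes past the test numbered 8 to 9 with 1 sample left out. In samples 1 to 4 alone and in samples 5 to 8 alone they numbered 0 of 25, since 4 against 4 samples cannot give a P under 0.0286, which cannot pass the adjustment.

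Opposite signs were seen only for probes that were not called. In samples 1 to 4 alone these were *Adh5* probe 1 (-0.03) and probe 2 (0.07), *Akr1c14* probe 1 (0.18), *Aldh1a1* (0.03), *Aldh2* (0.01), *Aldh3b1* probe 1 (-0.11), *Aldh8a1* probe 1 (-0.07) and probe 3 (0.02). In samples 5 to 8 alone they were *Adh1* probe 2 (0.02) and *Aldh3b1* probe 2 (0.00). Without the 3 samples with pancreas RNA they were *Adh5* probe 1 (0.00, from below), *Akr1c14* probe 1 (0.02), *Aldh1a1* (0.01), *Aldh1b1* (0.05), *Aldh2* (0.01), *Aldh3b1* probe 1 (-0.03), *Aldh8a1* probe 1 (-0.02) and probe 3 (0.07). With array weights they were *Adh5* probe 1 (-0.03) and *Aldh2* (0.00). With 1 sample left out the ranges that crossed 0 were -0.05 to 0.05 for *Adh5* probe 1, -0.16 to 0.08 for *Akr1c14* probe 1, -0.11 to 0.04 for *Aldh1b1*, -0.02 to 0.01 for *Aldh2*, -0.02 to 0.06 for *Aldh3b1* probe 1, -0.01 to 0.06 for *Aldh8a1* probe 1 and -0.06 to 0.06 for probe 3. The cause of these changes was not tested.

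With the sample number as a replicate block 8 probes and 6 genes were called, as without it, and no call of a named gene changed. Same-numbered samples of both strains deviated together with r from -0.0147 to 0.539, and 5 of 16 samples correlated best with their own number, so the numbers were not taken to pair the samples. Signals near the array median limit what dim probes such as *Adh7* in A/J can show.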

Other observations

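The spread within C57BL/6J was larger than within A/J for 41 of the 61 probes (67.2%), against 61.1% of all kept probes, and more than 2 times as large for 8 (13.1%, against 9.64%). *Rdh16*, a microsomal retinol and steroid dehydrogenase named after its values were seen, had nearly the same mean in both strains, 10.99 ± 0.162 in A/J and 11.01 ± 0.60 in C57BL/6J (SD, n = 8 each). The A/J samples lay between 10.78 and 11.21. In C57BL/6J it was at 11.19, 11.23, 10.46, 10.07, 11.89, 10.91, 11.61 and 10.68 in samples 1 to 8, so samples 5 and 7 were highest and sample 4 lowest. The difference between strains was -0.02 (95% interval -0.44 to 0.40).

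Of the 58 genes, 15 had no kept probe. Among them were *Aldh1a2* and *Aldh1a3*, which make retinoic acid outside the liver, *Aldh3a1*, the corneal aldehyde dehydrogenase, *Akr1c18*, which breaks down progesterone, and the retinol dehydrogenases *Rdh12* and *Rdh13*. The others were *Akr1c20*, *Akr1c21*, *Akr1cl*, *Aldh1l2*, *Aldh3b3*, *Aldh9a1*, *Aldh18a1*, *Dhrs3* and *Dhrs9*. Their signals were near the array median, and whether the genes were expressed could not be read at this level.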
